A study of Mus musculus with 7 samples.

Results

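The genes of the endothelial caveola and its diaphragm were followed in mouse lung endothelial cells (MLEC) that lacked or kept adrenomedullin. They are the 7 genes *Cav1*, *Cav2*, *Ptrf*, *Sdpr*, *Prkcdbp*, *Ehd2* and *Plvap*, taken as the rows of the deposited expression table that carry one of these symbols, 7 of 38472 genes. RNA was sequenced from 3 AM EC-KO libraries, lettered b, d and g, and from 4 WT libraries, lettered a, c, e and f. In AM EC-KO cells a floxed *Adm* gene was the target of a Cre recombinase driven by the *Cdh5* (VE-cadherin) promoter, which is active in endothelium of all organs, whereas WT cells kept *Adm*. Both genotypes had the C57BL/6 background, and the labels give no treatment. The ages of the mice were not given. The cells were isolated from pooled lungs of 3 mice with beads against PECAM-1, purified again with beads against ICAM-2 and grown in culture. The sequencing values were described as means of at least 3 MLEC preparations, but no source says which library came from which isolation, so the p-values below reflect how far the 7 libraries spread, part of which may be technical.

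Expression was given as FPKM, fragments scaled by transcript length and by the mapped reads of the library, so that levels of different genes can be set side by side per unit of length. The deleted gene, *Adm*, had 9.31, 17.2 and 0.75 FPKM in the b, d and g AM EC-KO libraries, against 48.2, 70.1, 76.1 and 43.8 FPKM in the a, c, e and f WT libraries. Its libraries did not overlap, and the difference of -3.10 on the log2(FPKM + 1) scale (SE 0.75) had a limma adjusted p of 0.954 and an exact permutation p of 0.057. The endothelial markers used for isolation were present in every library, with *Pecam1* at 372 to 444 FPKM in AM EC-KO cells and 364 to 454 FPKM in WT cells, and *Icam2* at 105 to 138 FPKM in AM EC-KO cells and 111 to 122 FPKM in WT cells. *Cdh5* was at 259 to 295 FPKM in AM EC-KO cells and 287 to 394 FPKM in WT cells. *Vwf*, which encodes von Willebrand factor, was listed at 0 in 5 of the 7 libraries, with 89.5 FPKM in WT e and 9.80 FPKM in WT f. Library WT e stood apart. Its median correlation with the other libraries across genes was 0.913, against 0.938 to 0.946 for the others, and its fibroblast marker *Dcn* was at 227 FPKM, against 2.83 to 8.47 FPKM elsewhere. Differences that changed most without WT e are therefore also given without it.

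Caveolae are small flask-shaped pits of the plasma membrane and are abundant in the endothelium of lung capillaries. Caveolins insert into the inner leaflet of the membrane and oligomerize, the cavins form a coat around them from the cytosol, and the ATPase EHD2 sits at the neck and holds the pit at the surface. In many endothelia a thin diaphragm made of PLVAP spans the neck of caveolae and the openings of fenestrae. Caveolin 1 is required for endothelial caveolae, and in mice the loss of *Cav1* or of *Ptrf* removes them.

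*Cav1* and *Cav2* are neighbours on chromosome 6 and lie on the same strand, 17.2 kb apart. The promoters of these neighbours are shown because both were low in WT e, and that of *Sdpr* because it was not. Whether the promoter sequences bear on the levels in WT e was not tested. Each window holds the 250 bases before the RefSeq gene start (GRCm38.p6), 5′ to 3′ on the strand of the gene. Capitals mark a GC box (GGGCGG, or CCGCCC on the other strand) or a CCAAT box (CCAAT, or ATTGG on the other strand). The windows are chr6:17306085-17306334 (+) for *Cav1*, chr6:17280935-17281184 (+) for *Cav2* and chr1:51288876-51289125 (+) for *Sdpr*.
Cav1: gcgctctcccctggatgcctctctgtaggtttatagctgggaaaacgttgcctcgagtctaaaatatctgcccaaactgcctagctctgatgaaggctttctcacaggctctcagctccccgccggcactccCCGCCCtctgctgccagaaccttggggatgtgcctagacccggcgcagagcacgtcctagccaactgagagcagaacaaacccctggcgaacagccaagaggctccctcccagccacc
Cav2: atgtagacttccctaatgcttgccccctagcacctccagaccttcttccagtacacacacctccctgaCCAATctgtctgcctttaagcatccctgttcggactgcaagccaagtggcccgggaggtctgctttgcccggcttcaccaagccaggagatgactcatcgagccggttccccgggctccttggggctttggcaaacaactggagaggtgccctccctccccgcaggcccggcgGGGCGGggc
Sdpr: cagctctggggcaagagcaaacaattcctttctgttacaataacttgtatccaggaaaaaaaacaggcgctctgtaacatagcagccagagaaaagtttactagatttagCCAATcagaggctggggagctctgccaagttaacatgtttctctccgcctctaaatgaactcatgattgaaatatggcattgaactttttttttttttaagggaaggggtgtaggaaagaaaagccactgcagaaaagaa
The *Cav1* window shown held 1 GC box and no CCAAT box. A second RefSeq start of *Cav1* has its window at chr6:17307390-17307639 (+), which held neither motif. The *Cav2* window held 1 of each, and the *Sdpr* window held 1 CCAAT box and no GC box. G and C made up 59.6% of the *Cav1* window shown, 62.0% of the *Cav2* window and 40.4% of the *Sdpr* window. Of 32851 promoter windows of this length, 32.7% held a GC box and 33.8% a CCAAT box. The table matched 5 of the 7 genes. Of these, *Ptrf* and *Ehd2* held 1 of each motif. *Prkcdbp* and *Plvap* had no entry.

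All 7 genes were well expressed in both genotypes, and none of them passed the test for a difference between AM EC-KO and WT cells. At an FDR of 0.1, limma called 0 of the 7 genes, against 0.0641% of the 15604 genes tested (10 genes). At an unadjusted p under 0.05 it called 0 of the 7, and 479 of all tested genes. The deleted gene *Adm* was not called by limma at that FDR either (unadjusted p 0.00463, adjusted p 0.954). A missing call in this test therefore does not show equal levels. All 7 had passed the filter on low values. The libraries of the 2 genotypes overlapped for each of the 7 genes, whereas they did not overlap for 5.13% of all tested genes. The adjusted p of the 7 genes ranged between 0.852 and 1 over all the alternatives run. With libraries of bulk RNA, fewer cells of a type and less RNA per cell cannot be told apart.

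**Figure D1:**
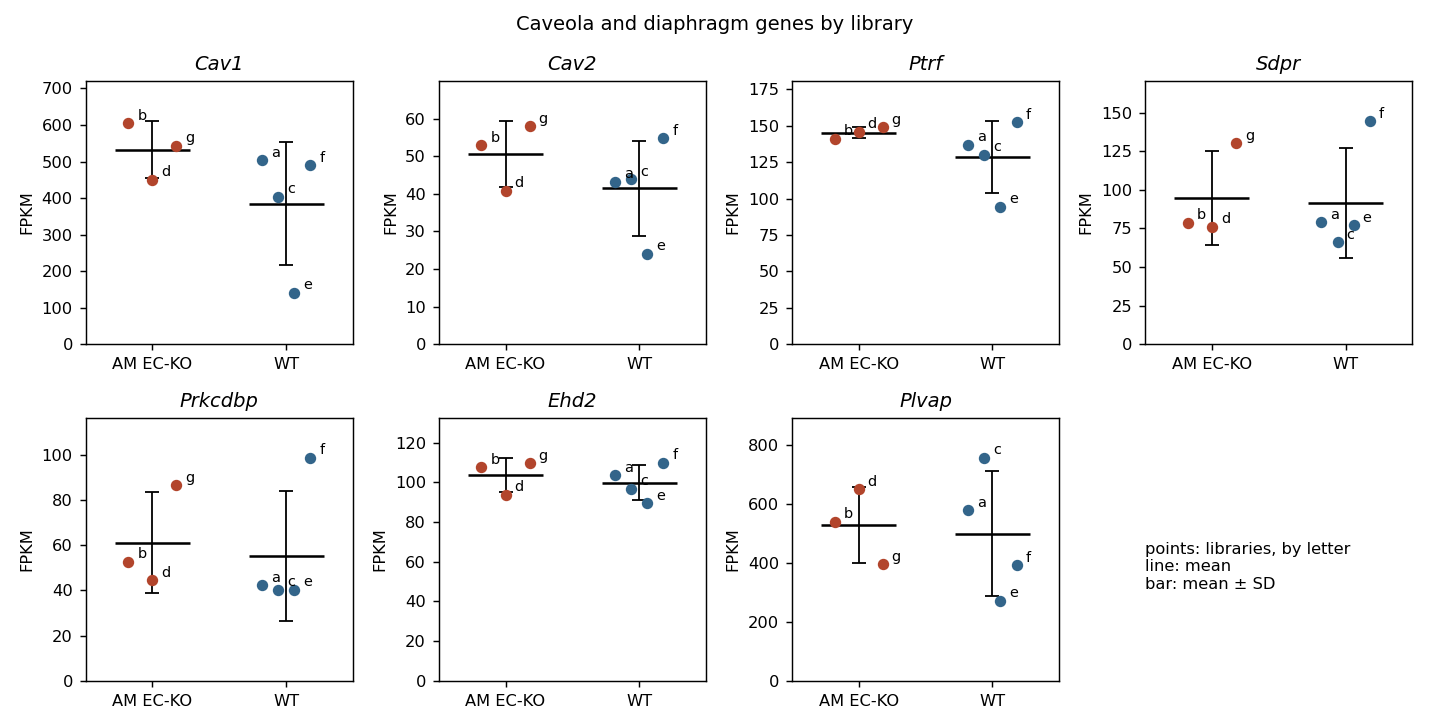
Expression of the 7 genes in FPKM, with a panel per gene, AM EC-KO libraries on the left and WT libraries on the right. Points are libraries with their letters, lines are means and bars are SD (n = 3 AM EC-KO, n = 4 WT). The genotypes overlap in every panel, and WT e is the lowest point for *Cav1*, *Cav2*, *Ptrf*, *Ehd2* and *Plvap*.

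*Cav1* (ENSMUSG00000007655, chromosome 6 from 17306335 to 17341452, plus strand) encodes the caveolin that builds the pit. It reached 605, 450 and 542 FPKM in the b, d and g AM EC-KO libraries, against 504, 404, 140 and 490 FPKM in the a, c, e and f WT libraries. Its mean was 532 ± 78.1 FPKM in AM EC-KO cells and 384 ± 169 FPKM in WT cells (SD, n = 3 and 4). Much of that gap came with a single library, since WT e had 28.2% of the median of the other 6. The AM EC-KO mean was 138% of the WT mean, and 114% without WT e. On the log2(FPKM + 1) scale the difference was 0.62 (SE 0.45, 95% interval -0.45 to 1.69), with an adjusted p of 0.954 by limma and an exact two-sided permutation p of 0.229. With 3 libraries against 4, the smallest p this permutation test can give is 0.057. Without WT e the difference was 0.19.

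*Cav2* (ENSMUSG00000000058, chromosome 6 from 17281185 to 17289115, plus strand) encodes the partner with which caveolin 1 forms hetero-oligomers. Its levels were well below those of *Cav1* in every library, at 52.9, 40.8 and 57.9 FPKM in the b, d and g AM EC-KO libraries, against 43.1, 43.9, 24.1 and 54.7 FPKM in the a, c, e and f WT libraries. WT e was again the lowest library, at 49.8% of the median of the others. The means were 50.5 ± 8.80 FPKM in AM EC-KO cells and 41.4 ± 12.7 FPKM in WT cells. The difference was 0.32 on the log2(FPKM + 1) scale (SE 0.28, 95% interval -0.33 to 0.97, limma adjusted p 0.954, exact permutation p 0.457), and 0.09 without WT e.

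The cavins form the coat of the pit. *Ptrf*, now *Cavin1* (ENSMUSG00000004044, chromosome 11 from 100956733 to 100970887, minus strand), encodes the cavin that caveolae cannot be formed without. It had 141, 146 and 149 FPKM in the b, d and g AM EC-KO libraries, against 137, 130, 94.4 and 153 FPKM in the a, c, e and f WT libraries. Its AM EC-KO libraries lay close together, with a coefficient of variation of 2.70%, against 19.1% in WT cells, where WT e was the low library, and 8.15% in WT cells without WT e. The means were 145 ± 3.92 FPKM in AM EC-KO cells and 129 ± 24.6 FPKM in WT cells, a difference of 0.20 on the log2(FPKM + 1) scale (SE 0.16, 95% interval -0.18 to 0.57, limma adjusted p 0.954, exact permutation p 0.286), and 0.06 without WT e.

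*Sdpr*, now *Cavin2* (ENSMUSG00000045954, chromosome 1 from 51289126 to 51302960, plus strand), encodes a cavin known for shaping the membrane of caveolae. It had 78.5, 76.0 and 130 FPKM in the b, d and g AM EC-KO libraries, against 78.9, 66.1, 77.0 and 145 FPKM in the a, c, e and f WT libraries. The high libraries were thus 1 of each genotype, AM EC-KO g and WT f, and WT e was close to the rest. The means of 94.9 ± 30.6 FPKM in AM EC-KO cells and 91.7 ± 35.7 FPKM in WT cells differed by 0.07 on the log2(FPKM + 1) scale (SE 0.31, 95% interval -0.66 to 0.81, limma adjusted p 0.979, exact permutation p 0.914). Without AM EC-KO g the difference was -0.18, and without WT f it was 0.31.

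*Prkcdbp*, now *Cavin3* (ENSMUSG00000037060, chromosome 7 from 105480083 to 105482300, minus strand), encodes a cavin that was first described as a protein binding protein kinase C delta. It had 52.6, 44.4 and 86.4 FPKM in the b, d and g AM EC-KO libraries, against 42.2, 40.2, 40.2 and 98.6 FPKM in the a, c, e and f WT libraries. AM EC-KO g and WT f were again the high libraries. The means were 61.1 ± 22.3 FPKM in AM EC-KO cells and 55.3 ± 28.9 FPKM in WT cells, and the difference was 0.20 on the log2(FPKM + 1) scale (SE 0.38, 95% interval -0.70 to 1.10, limma adjusted p 0.963, exact permutation p 0.571). It was 0.09 without WT e, -0.075 without AM EC-KO g and 0.51 without WT f.

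*Ehd2* (ENSMUSG00000074364, chromosome 7 from 15946958 to 15967567, minus strand), the gene of the ATPase at the neck, varied little between libraries. It had 108, 93.8 and 110 FPKM in the b, d and g AM EC-KO libraries, against 103, 96.7, 89.4 and 110 FPKM in the a, c, e and f WT libraries. Its highest library was 1.23 times its lowest, against 4.32 times for *Cav1*. Without WT e this ratio was 1.17 for *Ehd2* and 1.17 for *Ptrf*, *Cav1* spanned 404 to 605 FPKM, and *Prkcdbp* was the widest of the 7 at 2.46 times. The means were 104 ± 8.62 FPKM in AM EC-KO cells and 99.8 ± 8.76 FPKM in WT cells. The difference was 0.06 on the log2(FPKM + 1) scale (SE 0.09, 95% interval -0.17 to 0.28, limma adjusted p 0.963, exact permutation p 0.571), the narrowest interval of the 7, and 0.004 without WT e.

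*Plvap* (ENSMUSG00000034845, chromosome 8 from 71497765 to 71511752, minus strand), the gene of the diaphragm, reached levels like those of *Cav1*. It had 540, 651 and 396 FPKM in the b, d and g AM EC-KO libraries, against 579, 757, 271 and 393 FPKM in the a, c, e and f WT libraries. WT e was the lowest library, at 48.4% of the median of the others. AM EC-KO g and WT f, where *Sdpr* and *Prkcdbp* were highest, came next from below. The means were 529 ± 128 FPKM in AM EC-KO cells and 500.0 ± 213 FPKM in WT cells, a difference of 0.16 on the log2(FPKM + 1) scale (SE 0.36, 95% interval -0.70 to 1.02, limma adjusted p 0.965, exact permutation p 0.743). Without WT e the difference was -0.10.

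**Figure D2:**
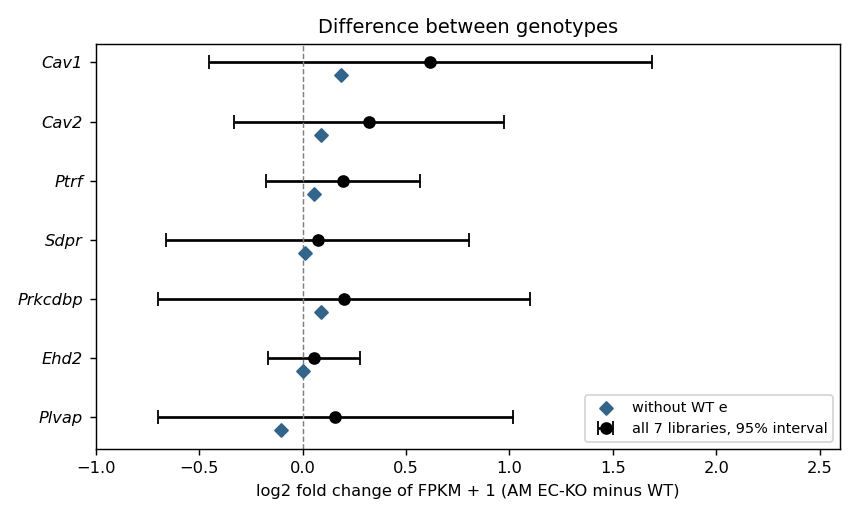
Difference between AM EC-KO and WT libraries on the log2(FPKM + 1) scale for each of the 7 genes, from limma, with all libraries and without WT e. Circles with bars are estimates with 95% intervals over all 7 libraries, and diamonds are estimates without WT e. Every interval spans 0, and the estimate of *Cav1* is 0.62 with all libraries and 0.19 without WT e.

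The estimates of all 7 genes lay above 0, with a median of 0.20 on the log2(FPKM + 1) scale, while 48.2% of all tested genes lay above 0 with a median of -0.01. Without WT e, 6 of the 7 lay above 0 with a median of 0.06, and 51.4% of all tested genes did. Without AM EC-KO g, 5 of the 7 lay above 0. The letters of the libraries form 2 runs that each hold both genotypes, a to d and e to g. Within a to d, the differences were 0.21 for *Cav1*, 0.09 for *Cav2*, 0.10 for *Ptrf*, 0.10 for *Sdpr*, 0.23 for *Prkcdbp*, 0.01 for *Ehd2* and -0.16 for *Plvap*. Within e to g, which holds WT e, they were 1.05 for *Cav1*, 0.66 for *Cav2*, 0.31 for *Ptrf*, 0.30 for *Sdpr*, 0.45 for *Prkcdbp*, 0.14 for *Ehd2* and 0.28 for *Plvap*. The labels do not say that the letters mark a batch.

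The order of the genes by level changed little between libraries. *Cav1* and *Plvap* took the first 2 places in all 7 libraries, with *Cav1* first in 3 (AM EC-KO b and g, WT f) and *Plvap* first in 4 (AM EC-KO d, WT a, c and e), so that these neighbours in the order did not differ beyond their spread. *Ptrf* was next in all 7 libraries. *Ehd2* followed, except in AM EC-KO g and WT f, where *Sdpr* stood above it. *Cav2* and *Prkcdbp* were the lowest and exchanged places between libraries. The 7 genes summed to 1578, 1502 and 1472 FPKM in the b, d and g AM EC-KO libraries, against 1487, 1538, 736 and 1443 FPKM in the a, c, e and f WT libraries.

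Library WT e was the lowest library for 5 of the 7 genes (*Cav1*, *Cav2*, *Ptrf*, *Ehd2* and *Plvap*), as it was for 32.7% of tested genes whose mean reached 10 FPKM. It fell below 0.5 of the median of the other 6 libraries for 3 of the 7 (*Cav1*, *Cav2* and *Plvap*), and for 5.56% of those genes. Markers of vascular endothelium as a whole were not lowered to that extent in WT e. Of the 16 markers, 8 were highest in WT e, and their summed level was 3752 FPKM there, against 3487 to 4016 FPKM in AM EC-KO libraries and 3938 to 4225 FPKM in the other WT libraries. *Emcn*, which encodes the capillary sialomucin endomucin, was at 571 FPKM in WT e. It was at 1211 to 1297 FPKM in AM EC-KO libraries and 1237 to 1337 FPKM in the other WT libraries. Among the 12 genes of capillary and fenestrated endothelium, 4 were instead highest in WT e. They were *Aplnr* (27.1 FPKM), *Gpihbp1* (10.9 FPKM), *Vegfa* (83.8 FPKM) and *Flt1* (41.3 FPKM). In the other libraries these reached at most 0.47, 2.49, 29.7 and 20.1 FPKM. The 10 fibroblast markers summed to 564 FPKM in WT e, where 6 of the 10 were highest, against 308 to 367 FPKM in AM EC-KO libraries and 260 to 277 FPKM in the other WT libraries. *Dcn* alone made up 227 FPKM of the WT e sum, against 2.83 to 8.47 FPKM in the other libraries. *Thy1* was instead lowest in WT e, at 160 FPKM, against 210 to 291 FPKM in the others. Fibroblast markers were not alone in this. Of the 10 smooth muscle and pericyte markers, 5 were highest in WT e, while *Tagln* was lowest there, at 190 FPKM. The same held for 4 of 12 lung epithelium, 3 of 9 myeloid and 2 of 6 lymphatic markers, which were highest in WT e. The part of fibroblasts or other cells in the low levels of the caveola and diaphragm genes was not tested.

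A second pattern joined a library of each genotype. In AM EC-KO g and WT f, 5 of the 7 genes (*Cav2*, *Ptrf*, *Sdpr*, *Prkcdbp* and *Ehd2*) were above all other libraries, as were 13.3% of tested genes whose mean reached 10 FPKM. The mean of these 2 libraries over the mean of the other 5 was 2.11 for *Prkcdbp*, 1.82 for *Sdpr* and 1.12 for *Ehd2*, against 0.705 for *Plvap*. These patterns were chosen after the values were seen.

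**Figure D3:**
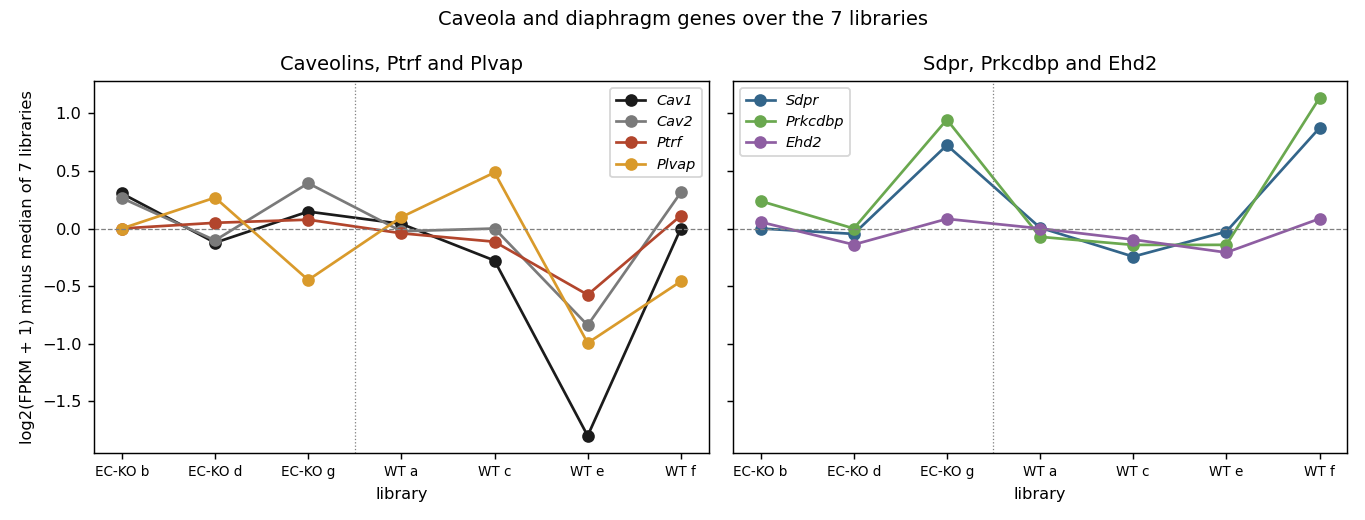
Level of each gene in each library as log2(FPKM + 1) minus the median of the 7 libraries, AM EC-KO libraries left of the dotted line and WT libraries right of it. *Cav1*, *Cav2*, *Ptrf* and *Plvap* drop in WT e, and *Sdpr* and *Prkcdbp* peak in AM EC-KO g and WT f.

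Across the 7 libraries, *Sdpr* and *Prkcdbp* followed each other closely, with r = 0.97 on the log2(FPKM + 1) scale and 0.98 without WT e. *Cav1* and *Cav2* had r = 0.94, and 0.65 without WT e. *Cav1* and *Ptrf* had r = 0.95, which was 0.40 without WT e. *Plvap* ran against *Sdpr* and *Prkcdbp* once WT e was left out, with r = -0.96 and -0.95, against -0.48 and -0.36 over all 7 libraries. AM EC-KO g and WT f stood apart here. They had *Sdpr* at 130 and 145 FPKM and *Plvap* at 396 and 393 FPKM. In libraries a to d, *Sdpr* was at 66.1 to 78.9 FPKM and *Plvap* at 540 to 757 FPKM. *Cav2* and *Ehd2* had r = 0.90 and 0.91 without WT e. These values describe 7 libraries, in which differences in depth and cell composition act on all genes at once, and they carry no test.

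The genes whose profile was most like that of each gene were sought among 6547 genes above 0 in every library whose mean reached 10 FPKM. They were *Tmco1* (r = 0.995) and *Tmem140* (r = 0.994) for *Cav1*, and *Tspan17* (r = 0.990) and the pseudogene *Gm6682* (r = 0.990) for *Cav2*. *Alcam* (r = 0.998) and *Timm50* (r = 0.995) were nearest to *Ptrf*. For *Sdpr* they were *Tpx2* (r = 0.991), a spindle assembly factor, and *Cdca3* (r = 0.988), a cell division gene. *Sulf1* (r = 0.988) and *Il10rb* (r = 0.985) were nearest to *Prkcdbp*, *Arl16* (r = 0.973) and *Ebp* (r = 0.971) to *Ehd2*, and *Baiap2* (r = 0.995) and *Ubtd1* (r = 0.989) to *Plvap*. With 7 points such values are common: between 65 genes for *Ehd2* and 518 genes for *Cav1* had r above 0.9.

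Ratios within a library do not depend on its scaling. The ratio of *Ptrf* to *Cav1*, coat to caveolin, was 0.233 to 0.325 in AM EC-KO libraries and 0.272 to 0.323 in WT libraries other than WT e, where it was 0.674. *Ehd2* to *Cav1* was 0.178 to 0.209 in AM EC-KO libraries and 0.205 to 0.240 in those 3 WT libraries, against 0.638 in WT e. *Cav2* to *Cav1* was 0.0874 to 0.107 in AM EC-KO libraries and 0.0856 to 0.112 in the same WT libraries, with 0.172 in WT e. Relative to each other gene of the set, *Cav1* was thus lower in WT e than in any other library. The summed cavins over the summed caveolins came to 0.414, 0.543 and 0.609 in the b, d and g AM EC-KO libraries, against 0.472, 0.529, 1.29 and 0.727 in the a, c, e and f WT libraries. *Plvap* to *Cav1* ran from 0.731 to 1.45 in AM EC-KO libraries and 0.802 to 1.93 in WT libraries. The highest library was 2.65 times the lowest for this ratio, and 2.57 times without WT e, whereas for *Sdpr* to *Cav1* it was 4.24 times with WT e and 2.27 times without it.

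The shares of the single cavins also varied between libraries. *Ptrf* made up 51.9, 54.8 and 40.7% of the summed cavins in the b, d and g AM EC-KO libraries, against 53.1, 55.1, 44.6 and 38.6% in the a, c, e and f WT libraries. *Sdpr* over *Prkcdbp* was 1.49, 1.71 and 1.51 in those AM EC-KO libraries, against 1.87, 1.65, 1.92 and 1.47 in those WT libraries. The genotypes overlapped in both measures.

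**Figure D4:**
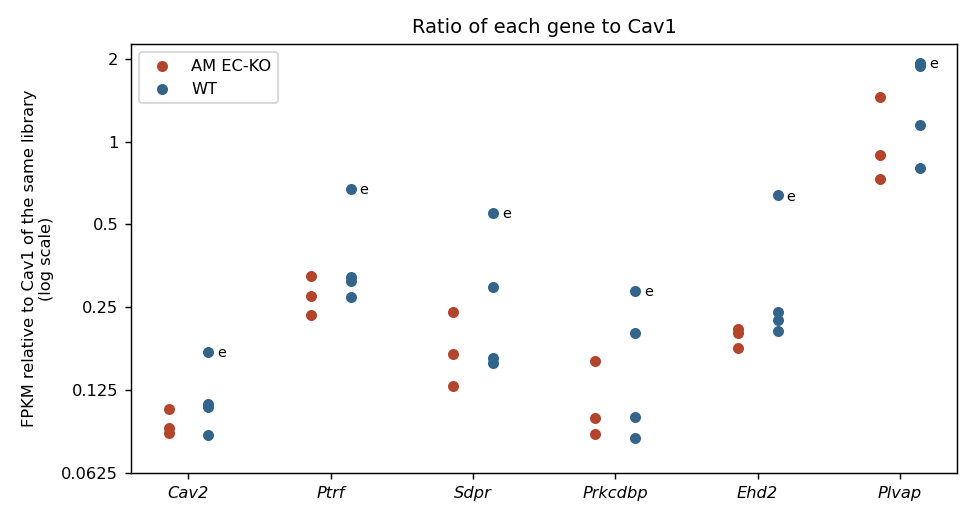
FPKM of each gene divided by the FPKM of *Cav1* in the same library, on a log axis, AM EC-KO libraries to the left of WT libraries for each gene. Points are libraries, and WT e is the highest ratio for all 6 genes, for example 0.674 for *Ptrf* and 0.638 for *Ehd2*.

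None of the other genes of the caveola coat and neck passed the test. Of 12 such genes, 9 were tested and 0 were called, with 6 above 0 and 3 below and a median of 0.14 on the log2(FPKM + 1) scale (0.01 without WT e). *Murc* (*Cavin4*), the muscle cavin, was low in all libraries, at 0.52, 0.69 and 0.78 FPKM in the b, d and g AM EC-KO libraries, against 0.42, 0.33, 0.42 and 0.27 FPKM in the a, c, e and f WT libraries. Its libraries did not overlap, and its difference of 0.29 (SE 0.11) had a limma adjusted p of 0.954. *Pacsin3*, which encodes an F-BAR protein that bends membranes, had 17.6, 16.5 and 17.6 FPKM in AM EC-KO libraries. In WT libraries it had 10.8 to 16.4 FPKM, without overlap. Its difference of 0.28 had a limma adjusted p of 0.954, and was 0.16 without WT e. *Dnm3*, a dynamin gene, differed by 0.44 and *Flna*, which encodes the actin crosslinker filamin A, by 0.14, both with an adjusted p of 0.954. *Cav3*, the muscle caveolin, did not exceed 0.16 FPKM, and *Pacsin1* and *Dnm1* were listed at 0 in every library.

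Signalling and transport proteins that reside in caveolae were also without a call. Of 12 genes, 10 were tested and 0 called, with 3 above 0 and 7 below and a median of -0.19 (-0.09 without WT e). *Nos3*, the endothelial nitric oxide synthase that binds caveolin 1, had 23.7, 19.4 and 43.0 FPKM in the b, d and g AM EC-KO libraries, against 33.6, 31.7, 35.4 and 48.1 FPKM in the a, c, e and f WT libraries. Its difference of -0.43 (SE 0.28) had an adjusted p of 0.954, and AM EC-KO g and WT f were its high libraries, as for *Sdpr*. *Insr*, the insulin receptor gene, differed by -0.26 and *Tgfbr1*, a TGF-beta receptor gene, by -0.24, both with an adjusted p of 0.954. Both were highest in WT e, and without it they differed by -0.12 and -0.06. *Fyn*, a Src family kinase gene, was listed at 0 in AM EC-KO g and ranged between 40.6 and 50.1 FPKM elsewhere.

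The 5 tested genes of flotillin rafts, a membrane domain that does not use caveolins, all lay above 0 with a median of 0.13, and 0 were called. *Flot1* was at 57.5 to 80.1 FPKM in AM EC-KO libraries and 41.0 to 74.7 FPKM in WT libraries, lowest in WT e. *Flot2* differed by 0.13 and *Prnp*, the prion protein gene, by 0.28, with adjusted p of 0.960 and 0.954 by limma. Without WT e, *Flot1* differed by 0.01, *Flot2* by -0.02 and *Prnp* by 0.04, and 4 of the 5 genes lay above 0 with a median of 0.04. Of 19 clathrin coat genes, 17 were tested and 0 called, with 11 above 0 and 6 below and a median of 0.09 (0.05 without WT e). *Dab2*, a clathrin adaptor gene, had 74.3, 70.1 and 77.9 FPKM in AM EC-KO libraries and 65.2, 63.9, 57.6 and 69.7 FPKM in WT libraries, without overlap, and its difference of 0.21 had an adjusted p of 0.954. A second row of the same symbol was listed at 0 in every library. *Picalm* differed by 0.19, *Fcho2* by -0.30 and *Ap2b1* by 2.82, all with an adjusted p of 0.954. Without WT e, *Fcho2* differed by -0.18 and *Ap2b1* by 3.72. *Ap2b1* was listed at 0 in WT c and f, at 40.8 and 40.5 FPKM in WT a and e, and at 43.3 to 47.2 FPKM in AM EC-KO libraries. Its libraries did not overlap either, but the size of its difference rests on the entries of 0, which can be failed estimates.

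Of 12 genes of capillary and fenestrated endothelium, 11 were tested, 0 were called and the median was -0.04, with 4 above 0 and 7 below. Without WT e, 8 lay above 0 and 3 below, with a median of 0.15. *Cd300lg*, a capillary gene also known as nepmucin, had 4.86, 6.67 and 7.68 FPKM in the b, d and g AM EC-KO libraries, against 0, 2.57, 0 and 0 FPKM in the a, c, e and f WT libraries. Its libraries did not overlap, and its difference of 2.41 (SE 0.49) had an adjusted p of 0.954 by limma. Left without WT c, the only WT library above 0, it was called with an adjusted p of 0.00683, and over all alternatives run the adjusted p ranged from 0.00683 to 1. An entry of 0 in this table can be a failed estimate, since 190 to 247 tested genes per library were listed at 0 with a median of at least 5 FPKM in the libraries where they were above 0. *Ednrb* (-0.73), *Podxl* (0.20) and *Aplnr* (-1.06) had adjusted p of 0.954. *Aplnr*, the apelin receptor gene, had 27.1 FPKM in WT e and at most 0.47 FPKM in every other library, and without WT e its difference was 0.12. *Car4* was listed at 0 in every library.

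**Figure D5:**
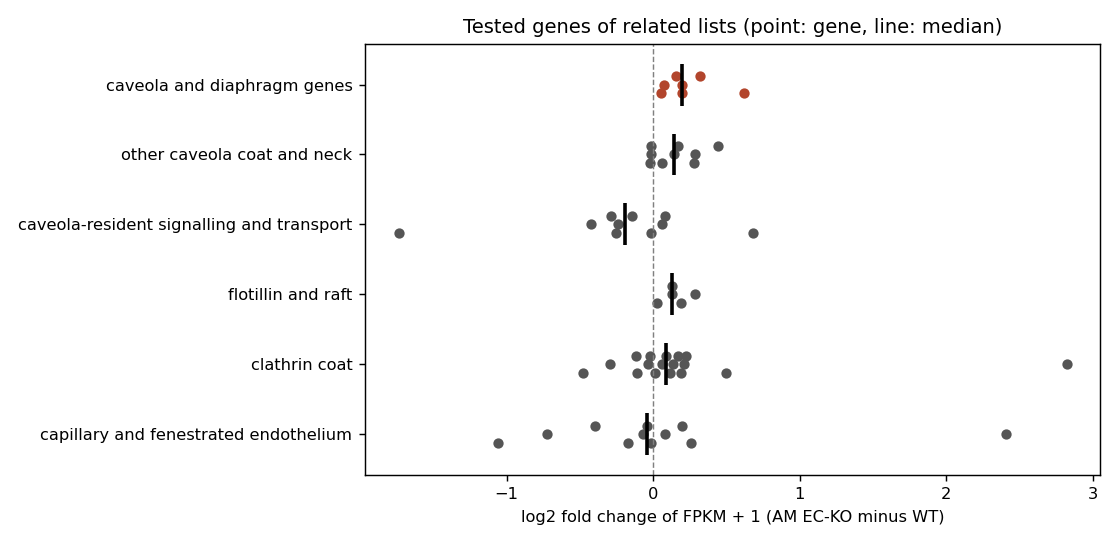
Difference between AM EC-KO and WT libraries on the log2(FPKM + 1) scale for the tested genes of the 6 lists drawn, with the 7 caveola and diaphragm genes as the first list. Points are genes and the vertical ticks are medians of these lists, which run from -0.19 for caveola-resident signalling to 0.20 for the 7 genes.

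Caveolae are also abundant in smooth muscle cells, adipocytes, fibroblasts and the type I cells of the alveolar epithelium. Smooth muscle and pericyte markers summed to 504 to 680 FPKM in AM EC-KO libraries and 331 to 634 FPKM in WT libraries, led by *Tagln* and *Acta2*. Adipocyte markers summed to 495 to 987 FPKM in AM EC-KO libraries and 674 to 1217 FPKM in WT libraries, nearly all of it *Fabp4*, which capillary endothelium also expresses, while *Cidec*, *Plin1* and *Lep* were listed at 0 in every library. Lung epithelium markers summed to at most 18.1 FPKM in AM EC-KO libraries, 25.8 FPKM in WT e and 19.7 FPKM in the other WT libraries. The highest, *Krt18*, was at 13.0 to 15.1 FPKM in AM EC-KO libraries and 11.7 to 19.4 FPKM in WT libraries. The surfactant genes *Sftpc* and *Sftpb* were at 10.3 and 2.08 FPKM in WT e and listed at 0 in every other library. *Ager* and *Hopx* were listed at 0 in every library. Lymphatic endothelium markers summed to 151 to 203 FPKM in AM EC-KO libraries and 215 to 292 FPKM in WT libraries. Of the highest of them, *Lyve1* was at 28.2 to 45.2 FPKM in AM EC-KO libraries and 36.8 to 157 FPKM in WT libraries. *Pdpn* was at 50.7 to 92.6 FPKM in AM EC-KO libraries and 24.5 to 99.7 FPKM in WT libraries. For *Flt4* these ranges were 49.7 to 66.5 FPKM and 49.8 to 91.4 FPKM. Myeloid markers summed to 54.0 to 236 FPKM in AM EC-KO libraries and 51.5 to 129 FPKM in WT libraries, with *Itgam* listed at 0 in every library. Mesothelium markers summed to 32.4 to 54.2 FPKM in AM EC-KO libraries and 2.16 to 59.5 FPKM in WT libraries (23.3 to 59.5 FPKM without WT e). *Krt19* led them, at 27.8 to 50.3 FPKM in AM EC-KO libraries and 1.75 to 59.0 FPKM in WT libraries. *Wt1* was listed at 0 in every library. The part of these cells in the levels of the 7 genes was not tested.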

How the data were processed

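Poly(A) RNA of cultured MLEC was sequenced from 3 AM EC-KO and 4 WT libraries, grouped by their labels. FPKM per gene and library were computed and deposited by the authors, who trimmed single reads with Cutadapt and mapped them with TopHat2 2.0.6 to GRCm38; the submitters' processing notes also name Cufflinks and Cuffdiff. The table's group values, fold changes, p-values and splicing columns are comparisons of the authors and were not used, and 172 of its 38472 rows hold no library values. FPKM give no counts, so no count model was fitted. Steps in the low values gave an estimated 6.8 to 8.15 M mapped reads per library. The depth taken was the one that put the largest share of low values near whole reads. Between 68.8 and 74.2% of the low values then lay less than 0.1 read from whole. By chance 20% would at a depth fixed beforehand, and picking the depth raises that share. At the estimated depth the least covered value of the 7 genes rests on about 127 reads, counted on the shortest listed transcript.

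log2(FPKM + 1) was tested with limma 3.58.1 (trend) in R 4.3.3, over 15604 genes whose mean reached 0.1 FPKM with at least 3 libraries above 0, with Benjamini-Hochberg adjustment at an FDR of 0.1. Exact two-sided permutation tests ran over all 35 splits. Python 3.11.15 was used for tables and figures (pandas 2.3.3, numpy 2.4.6, matplotlib 3.10.9). The code was tested on simulated data. Alternatives were pseudocounts of 0.1 and 0.01, no filter, a filter at a mean of 1 FPKM, and genes above 0 in every library. Trimmed-mean and quantile scaling, TPM, and limma with array weights, with robust moderation or with no trend were also run. So were a term for library letters a to d against e to g, and each library left out. Differences of listed genes without WT e are differences of mean log2(FPKM + 1), with no test.

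The 7 genes and all lists were chosen with earlier results of these data known. Named are the 7 genes, *Adm* and 3 isolation markers, up to 4 genes per related list by smallest p, up to 3 per list of other cells by level, and the 2 genes most like each of the 7; others were chosen after their values were seen. Coordinates are of GENCODE M21 (GRCm38), and promoters of RefSeq (GRCm38.p6).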

Additional observations from a re-analysis of the deposited data

Results flagged for a closer look

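In the WT group, library f stood far above the other 3 libraries for *Sdpr* and *Prkcdbp*. *Sdpr* was at 145 FPKM in WT f, against 66.1 to 78.9 FPKM in the other WT libraries, and the gap divided by the range of the group was 0.837, above the Dixon limit for a group of 4. *Prkcdbp* was at 98.6 FPKM in WT f, with a ratio of 0.965. Chance alone puts about 1 in 20 groups past this limit. The 3 AM EC-KO libraries were too few for this comparison, and AM EC-KO g was high for both genes, at 130 and 86.4 FPKM.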

How the results depend on the processing

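The 19 alternatives gave 133 differences for the 7 genes, and 127 kept their direction and their side of the FDR of 0.1. The other 6 changed direction. *Sdpr* ranged from -0.18 (without AM EC-KO g; -0.06 without WT c) to 0.31 when each library was left out, *Prkcdbp* from -0.075 (without AM EC-KO g) to 0.51, and *Plvap* from -0.10 (without WT e; -0.01 without AM EC-KO d) to 0.39. *Plvap* was at -0.028 with array weights. None of the 7 was called under any of the 19. Over all tested genes, limma called 10, against 18 with a pseudocount of 0.1, 17 with 0.01 and 8 (without AM EC-KO g) to 39 (without WT a) with a library left out. Among genes above 0 in every library it called 0, where 340 had an unadjusted p under 0.05 and the smallest adjusted p was 0.35. The list of capillary genes had 0 to 1 calls with a library left out, the 1 being *Cd300lg* without WT c. Causes were not tested. No paired analysis was possible because the labels share no replicate numbers between genotypes. With 3 and 4 libraries the intervals are wide: for *Cav1*, differences between -0.45 and 1.69 on the log2(FPKM + 1) scale lay within the interval, and a missed threshold does not show equal levels.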
